A study of Mus musculus with 8 samples.

Results

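Adrenergic, cAMP and G protein signalling is the route by which sympathetic nerves switch brown fat on, and its genes were followed here from the receptor to the brakes in the brown adipose tissue of wild-type mice and of mice without the microRNA gene mir-193b. The members were chosen by gene symbol: adrenergic receptors, 6 G protein α subunits, the adenylyl cyclases, the subunits of protein kinase A (PKA), the phosphodiesterases, the regulators of G protein signalling (Rgs genes) and the receptor kinase Adrbk1. Described are 76 of the 22552 genes listed, and every count of members below is over these. Among them, 46 had a mean over both genotypes of at least 1 FPKM (mapped fragments scaled to transcript length and library size) and are called measured. The other 30 lay below that level. They were Adra1b, Adra2a, Adra2b and Adra2c, Adcy1, Adcy2 and Adcy8, Prkar1b, 8 phosphodiesterases, 12 Rgs genes, and Rgs7bp and Rgs9bp.

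The wild-type group (WT) carried mmu-mir-193b +/+ and the Null group mmu-mir-193b -/-, all on the mixed strain background 129SV::FVB/N::C57BL/6 and all aged 2 months. The Null allele came from a floxed miR-193b allele recombined with MMTV-Cre, a Cre driven by the mouse mammary tumour virus promoter, and the labels describe breeding that removed the Cre transgene again. The series title names miR-365-1, which lies beside mir-193b, as absent too. The mRNA data rest on 3 WT and 3 Null samples, which the authors had combined into 1 FPKM value per gene for each genotype. Each such column is referred to as a pool, of WT or of Null. The pools carry no spread between animals, so no difference below has a replicate check and none was tested. How deeply the mRNA libraries were sequenced is unknown.

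Noradrenaline from sympathetic nerves binds β-adrenergic receptors on brown fat cells. These act through the stimulatory G protein Gs on adenylyl cyclase, which makes cAMP. cAMP frees the catalytic subunits of PKA from its regulatory subunits, and PKA then drives lipolysis and the heat-producing gene programme. The α2 receptors act through inhibitory G proteins (Gi) against the cyclases, and the α1 receptors act through Gq on calcium. Phosphodiesterases destroy cyclic nucleotides, RGS proteins speed the shut-off of Gα subunits, and receptor kinases uncouple active receptors.

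The deleted microRNAs are printed because they define the Null group. The mature strands are from RefSeq (GRCm38.p6), with the seed, bases 2 to 8, in capitals. miR-193b-3p lies at chr16:13449570-13449591 (+ strand), and miR-193a-3p at chr11:79712009-79712030 (+ strand). miR-365-3p has the same sequence from both of its genes, Mir365-1 at chr16:13453895-13453916 and Mir365-2 at chr11:79726467-79726488 (both + strand).
miR-193b-3p: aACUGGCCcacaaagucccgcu
miR-193a-3p: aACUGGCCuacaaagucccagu
miR-365-3p: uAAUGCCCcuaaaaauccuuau
In the microRNA libraries, 1 per genotype, miR-193b-3p stood at 3705 in WT and 11.5 in Null on the authors' RPM scale, 0.311% of WT. miR-193a-3p, which shares the seed, stood at 3857 and 4067, and miR-365-3p at 1442 and 798. The 5p strands differ between both miR-365 genes: miR-365-1-5p stood at 11.8 and 0.0821, and miR-365-2-5p at 9.37 and 17.9. The Null label was therefore borne out by miR-193b-3p, a strand that only mir-193b makes. The loss of miR-365-1 named in the series title was seen as well, from a strand that was low in WT.

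The tissue label was checked against markers. The brown fat genes Ucp1 (3016 FPKM in the WT pool and 2487 FPKM in the Null pool), Cidea (2615 and 2717 FPKM), Prdm16 (6.91 and 6.58 FPKM), Pparg (233 and 237 FPKM) and Adipoq (1163 and 1899 FPKM) were present in both pools. All 7 skeletal muscle fibre genes listed had smaller values in Null, and their sum was 1894 FPKM in WT and 1147 in Null. Macrophage markers summed to 42.8 and 76.6 FPKM over the 6 found of 7 listed, lymphocyte markers to 12.7 and 36.8 FPKM over 6 genes, and smooth muscle and mural cell markers to 98.1 and 97.8 FPKM over 9 genes. Most of the lymphocyte sum was Cd52 alone (11.8 and 33.6 FPKM), and the other 5 genes had means below 1 FPKM. Of the 6 macrophage genes 5 were higher in Null, while Csf1r was level (5.18 and 5.16 FPKM). Fibroblast markers summed to 227 and 372 FPKM, with 5 of 5 higher in Null, and red cell genes to 113 and 349 FPKM, with 3 of 3 higher. Endothelial markers summed to 186 and 195 FPKM over 5 genes. No gene found of the lists given up to this point was at 0 in both pools. Schwann cell and nerve markers summed to 81.1 and 100.9 FPKM, with Dbh, which makes noradrenaline, listed at 0 in both. In bulk tissue, fewer cells of a type and less RNA per cell cannot be told apart, and this holds for every difference below.

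Differences between pools are given as the log2 ratio log2((Null + 1)/(WT + 1)) of FPKM, which understates the ratio of low genes, and folds are ratios of the deposited FPKM values. Measured members had a median log2 ratio near that of all genes, but more of them were lower in Null, and 1 stood out. Rgs2 was higher in the Null pool by 2-fold or more on this scale. That is 1 of 46 measured members (2.17%), the same share as the background of 2.17% of the 11597 genes measured. On the same scale no member was lower by 2-fold or more, where 1.65% of all genes were. As plain ratios of FPKM, Pde3a (3.29-fold), Pde7b (2.17-fold) and Adcy10 (2.11-fold) were lower and Pde9a (2.18-fold) higher by more than that, all at low levels. In either direction 3.82% of all genes passed 2-fold. By 1.5-fold or more, 2 of the 46 members were higher (7.87% of all genes) and 9 of the 46 were lower (6.75% of all genes). Both directions together, 23.9% of the measured members passed 1.5-fold, beside 14.6% of all genes. The median log2 ratio of the 46 was -0.08, against 0.01 for all genes measured, with 16 members higher and 30 lower. The share lower was thus 65.2% of the measured members and 49.4% of all genes.

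These counts move with the settings. With a pseudocount of 0.1 FPKM in place of 1 FPKM, 3 members were lower by 2-fold or more (Adcy10, Pde3a and Pde7b) and Pde9a joined Rgs2 among the higher ones. In that setting 2.56% of all genes were lower and 3.12% higher by 2-fold or more. With a pseudocount of 5 FPKM only Rgs2 was higher by 1.5-fold or more, and 3 in place of 9 members (Adcy3, Adcy6 and Pde4dip) were lower by 1.5-fold or more. Among all genes 4.59% were then higher and 3.04% lower by that much. Requiring a mean of 5 FPKM left 6 of 35 members lower by 1.5-fold or more, beside 7.03% of all genes. The FPKM columns sum to 508701 in WT and 590327 in Null. Rescaled to the same sum, the median log2 ratio of all genes moved to -0.18 and the share of members higher in Null went from 34.8% to 19.6%, beside 50.6% and 30.5% of all genes. In that setting 3 members (Adcy3, Pde3a and Pde7b) were lower by 2-fold or more and 14 by 1.5-fold or more. The shares of all genes there were 2.82% and 13.97%.

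**Figure D1:**
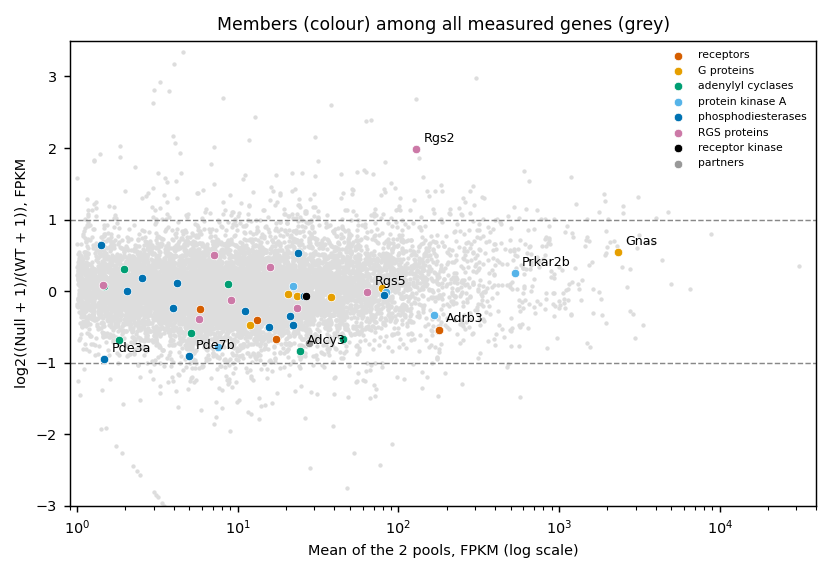
Log2 ratio of Null to WT FPKM (vertical axis, pseudocount 1 FPKM) against the mean FPKM of the 2 pools (horizontal axis, log scale) for the measured genes in grey and the 46 measured members coloured by layer, with dashed lines at 2-fold. Rgs2 lies above the upper line and no member lies below the lower one. 64 grey genes fall outside the vertical axis.

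The most abundant receptor described was Adrb3, the main β-adrenergic receptor of mouse fat cells. It stood at 211 FPKM in the WT pool and 145 FPKM in the Null pool, a log2 ratio of -0.54, and ranked 363rd of all 22552 genes in WT. Adrb1, the β receptor also known from heart and from brown fat precursor cells, stood at 15.2 and 11.2 FPKM (-0.40). Adrb3 exceeded Adrb1 13.9 times in WT and 12.9 times in Null, per transcript length. Both had smaller values in Null, short of 1.5-fold as deposited. Adrb3 passed 1.5-fold with quantile normalization (-0.69) and with columns of the same sum (-0.75), and Adrb1 with columns of the same sum (-0.60).

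The α receptors were less abundant than Adrb3. Adra1a, which couples to Gq, stood at 21.4 and 13.1 FPKM (-0.67), and Adra1d at 6.41 and 5.20 FPKM (-0.26). Adra1a made up 76.7% of the summed α1 receptor FPKM in WT and 71.4% in Null. The sums of the muscle fibre and immune cell markers also differed between the pools, as given above, and their part in the receptor values was not tested. Adra1b was at 0.103 and 0.0605 FPKM. The α2 receptors, the Gi-coupled brakes of white fat cells, were near 0 in both pools: Adra2b at 0.131 and 0.151 FPKM, Adra2c at 0.111 and 0.108 FPKM, and Adra2a at 0.0314 and 0.0487 FPKM. Of the 8 adrenergic receptors described, 4 were measured, and each of these had a smaller value in Null. Their median was -0.47 on the log2 scale. As deposited, Adra1a was the 1 of them past 1.5-fold, and with a pseudocount of 5 FPKM it was not (-0.55).

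**Figure D2:**
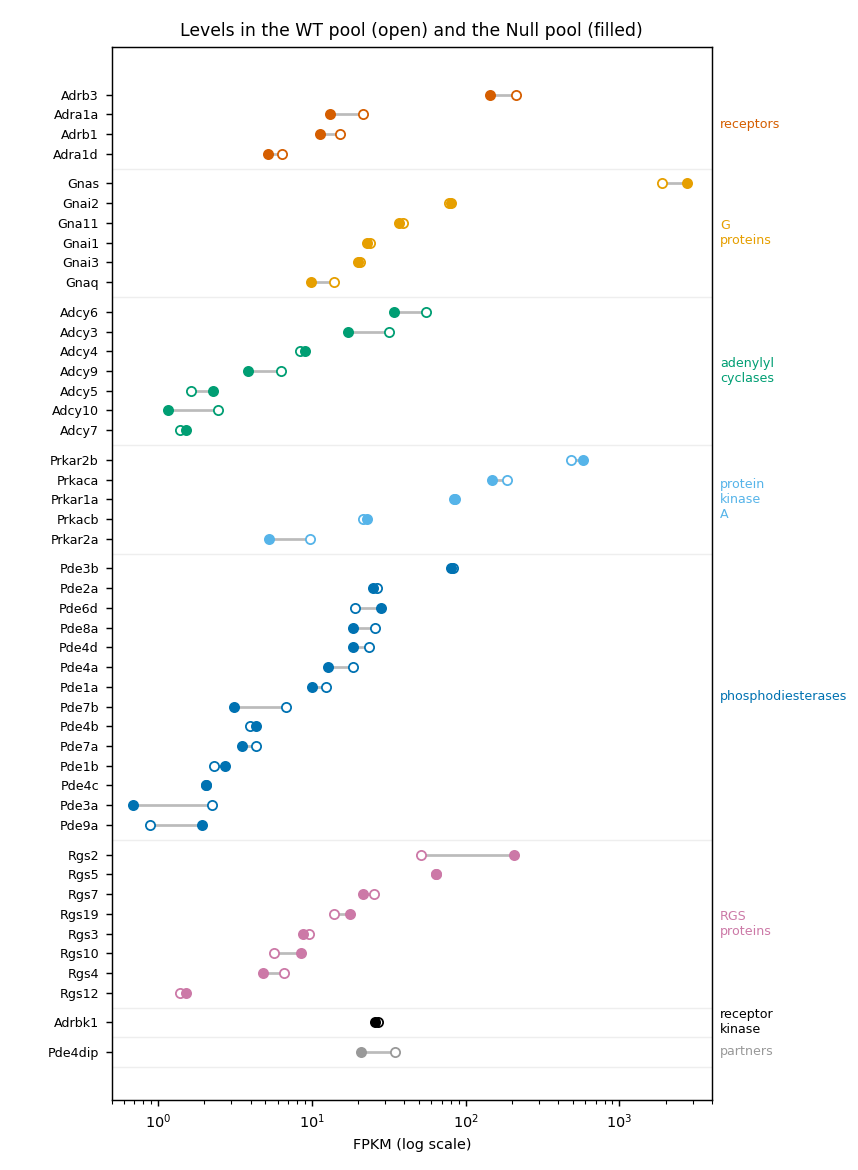
FPKM on a log axis in the WT pool (open circles) and the Null pool (filled circles) for the 46 measured members, grouped by layer and ordered by mean level. Adrb3, Gnas, Prkar2b and Pde3b lead their layers in both pools, and the widest gap between the circles belongs to Rgs2 (51.3 and 206 FPKM).

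The G protein layer was Gs in large excess. Gnas, which encodes the Gs α subunit, stood at 1889 FPKM in WT and 2757 in Null (0.55), and ranked 23rd and 18th of all genes. With quantile normalization its log2 ratio was 0.12. The Gnas locus makes several transcripts that share exons, so the value is not that of a single product. The Gi subunits hardly differed: Gnai2 stood at 78.2 and 80.8 FPKM (0.05), Gnai1 at 24.1 and 22.9 FPKM (-0.07), and Gnai3 at 20.7 and 20.1 FPKM (-0.04). The small positive ratio of Gnai2 turned negative when columns were rescaled to the same sum (-0.16) or quantile normalized (-0.07).

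Gnas exceeded the sum of the Gi subunits 15.4 times in WT and 22.3 times in Null. Of the Gq subunits, which serve the α1 receptors, Gna11 stood at 39.2 and 36.9 FPKM (-0.08) and Gnaq at 14.0 and 9.85 FPKM (-0.47). None of the 6 α subunits differed by 1.5-fold or more, where 14.6% of all genes did, and their median log2 ratio was -0.06.

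The adenylyl cyclases had the lowest median log2 ratio of the 6 layers, -0.59 over 7 measured genes of 10. Adcy6, a calcium-inhibited cyclase, stood at 55.3 and 34.5 FPKM (-0.67). Adcy3, the cyclase also known from olfactory neurons, stood at 31.6 and 17.2 FPKM (-0.84). Adcy9 stood at 6.33 and 3.86 FPKM (-0.59). Adcy10, the soluble cyclase that responds to bicarbonate and not to G proteins, was low at 2.47 and 1.17 FPKM (-0.68). These 4 were lower by 1.5-fold or more, which is 4 of 7, beside the 6.75% of all genes given above. Adcy9 lay just past that line and fell short of it with quantile normalization (-0.55), upper-quartile scaling (-0.58) and a pseudocount of 5 FPKM (-0.35). Adcy10 fell short with that pseudocount too (-0.28).

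The remaining cyclases were not lower. Adcy4, known from endothelium, stood at 8.36 and 9.02 FPKM (0.10), Adcy5 at 1.65 and 2.27 FPKM (0.31) and Adcy7, known from blood cells, at 1.399 and 1.52 FPKM (0.07). The ratio of Adcy4 was -0.09 with columns of the same sum. Adcy6 and Adcy3 together held most of the cyclase FPKM: 51.2% and 29.3% in WT, 49.3% and 24.6% in Null. The share of Adcy4 was 7.74% in WT and 12.9% in Null. The summed level of all 10 cyclases was 108 FPKM in WT and 69.9 in Null.

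Relative to all genes, the cyclase median was -0.60 as deposited, -0.59 with columns of the same sum and -0.55 with quantile normalization. With a pseudocount of 5 FPKM it was -0.28, above the receptor median of -0.42 in that setting. With the cyclases below 1 FPKM included, the median was -0.27. Cyclases are large proteins with long mRNAs, and ribosomal protein genes, whose mRNAs are short, stood at a median of 0.88 on the log2 scale, 46 of 63 of them past 1.5-fold upward in Null. Transcript lengths were not used here, and the part of length in the cyclase values was not tested.

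**Figure D3:**
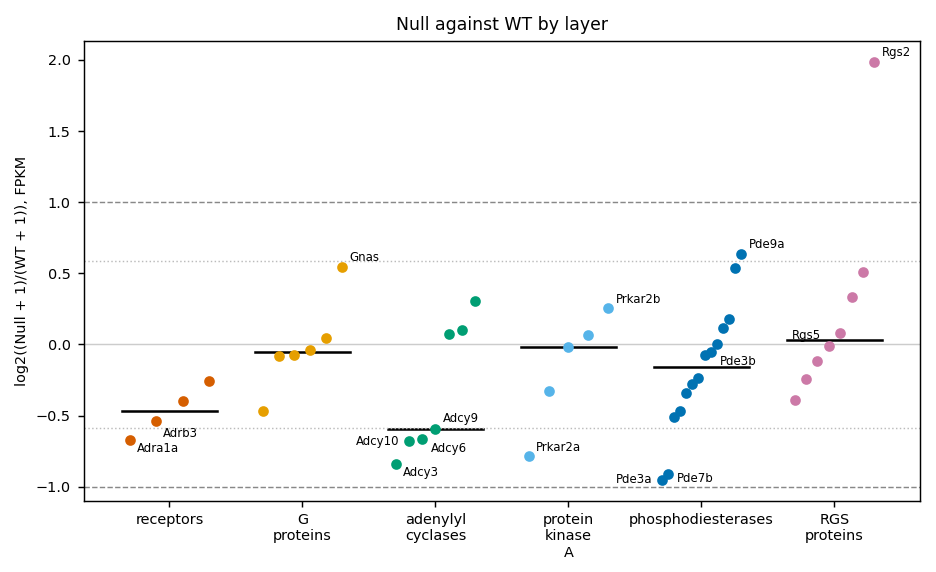
Log2 ratio of Null to WT FPKM (pseudocount 1 FPKM) of the measured members of 6 layers. Points are genes in order of their ratio, black bars are layer medians, dashed lines mark 2-fold and dotted lines 1.5-fold. The cyclase median lies at -0.59, the receptor median at -0.47, and the other medians between -0.16 and 0.03.

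In the PKA layer, 1 regulatory and 1 catalytic subunit held most of the mRNA level of their kind. Prkar2b, the regulatory subunit RIIβ that predominates in fat, stood at 485 FPKM in WT and 579 in Null (0.26), and ranked 160th and 155th of all genes. Prkaca, the main catalytic subunit, stood at 186 and 148 FPKM (-0.33). The widely expressed Prkar1a stood at 84.7 and 83.6 FPKM (-0.02) and the catalytic Prkacb at 21.6 and 22.7 FPKM (0.07, or -0.14 with columns of the same sum). Prkar2a, the second type II regulatory subunit, stood at 9.80 and 5.27 FPKM (-0.78) and was the 1 PKA gene lower by 1.5-fold or more.

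Prkar2b made up 83.6% of the regulatory subunit FPKM in WT and 86.6% in Null, and Prkar2a 1.69% and 0.788%. Prkaca made up 89.6% and 86.7% of the catalytic subunit FPKM. Regulatory exceeded catalytic subunits 2.79 times in WT and 3.91 times in Null, in FPKM, with summed regulatory levels of 580 and 668 FPKM and summed catalytic levels of 208 and 171 FPKM. The ratio of the subunit mRNAs thus stood higher in the Null pool. Whether the difference exceeds the variation between animals could not be assessed.

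Among the phosphodiesterases, counted by symbol and with Pde6d included, 14 of 22 were measured. Pde3b, the insulin-activated enzyme through which insulin restrains lipolysis in fat cells, was the most abundant at 82.99 FPKM in WT and 79.9 in Null (-0.05). Pde2a, stimulated by cGMP, stood at 26.5 and 25.2 FPKM (-0.07). Pde8a, a cAMP-specific enzyme of high affinity, stood at 25.9 and 18.5 FPKM (-0.47). Pde6d, which despite its name is a carrier of prenylated proteins and no phosphodiesterase, stood at 19.1 and 28.2 FPKM (0.54).

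The cAMP-specific Pde4 enzymes were lower in Null where they were abundant. Pde4d stood at 23.6 and 18.4 FPKM (-0.34) and Pde4a at 18.5 and 12.7 FPKM (-0.51), whereas Pde4b (3.96 and 4.37 FPKM, 0.12) and Pde4c (2.04 and 2.04 FPKM, 0.00) were not lower as deposited. Neither Pde4d nor Pde4a passed 1.5-fold on the log2 scale used. As deposited, the largest negative log2 ratios of the measured members were here. Pde3a, the relative of Pde3b known from heart, vessels and platelets, stood at 2.26 and 0.688 FPKM (-0.95), and Pde7b at 6.79 and 3.13 FPKM (-0.91). With a pseudocount of 0.1 FPKM the ratio of Pde3a was -1.58 and that of Pde7b -1.09. With 5 FPKM they were -0.35 and -0.54, and Adcy3 was lowest (-0.72).

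Pde9a, a cGMP-specific enzyme, was the 1 phosphodiesterase higher by 1.5-fold or more, at 0.893 and 1.94 FPKM (0.64). These 3 genes were low, and their counting error is unknown. Across the 14 the median log2 ratio was -0.16, with 5 higher and 9 lower. Pde6d is among the 14 and is 1 of the 5 higher. Pde3b held 35.4% of the summed FPKM of the 22 genes in WT and 37.3% in Null, and Pde6d 8.17% and 13.2%. Pde3b exceeded Pde3a 36.6 times in WT and 116 times in Null.

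**Figure D4:**
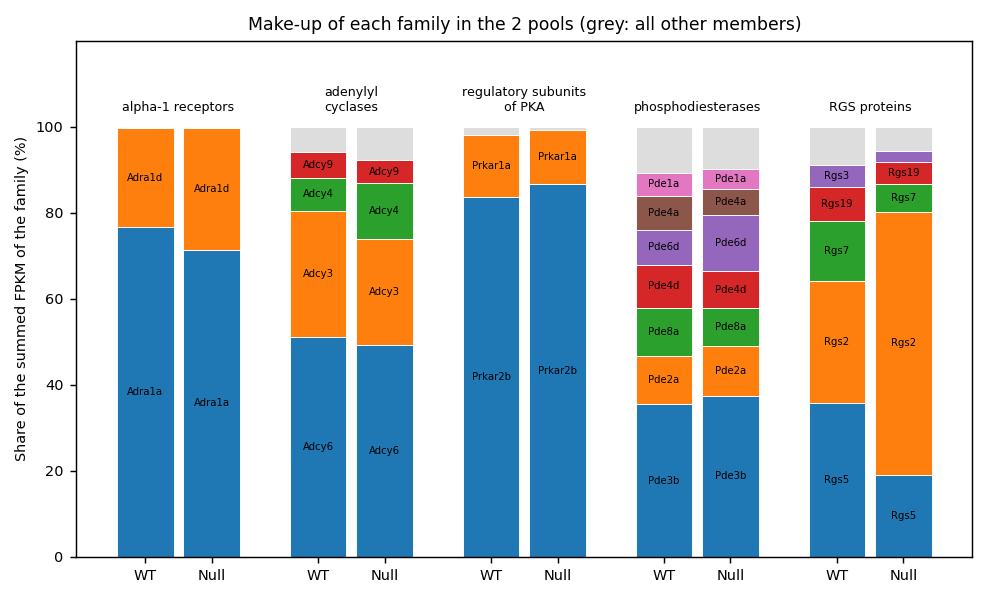
Share of each gene in the summed FPKM of its family (vertical axis, %) in the WT and the Null pool for α1 receptors, adenylyl cyclases, regulatory subunits of PKA, phosphodiesterases and RGS proteins. Grey marks all members below 5% in both pools. Rgs2 holds 28.4% of the RGS total in WT and 61.3% in Null, while Adra1a, Adcy6, Prkar2b and Pde3b are the largest segments of their families in both.

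Among the 8 measured Rgs genes of 20, 1 differed by 1.5-fold or more, which is 12.5%, beside 14.6% of all genes. Rgs2, a small RGS protein that acts mainly on Gq and is also known to restrain adenylyl cyclase, stood at 51.3 FPKM in the WT pool and 206 FPKM in the Null pool, 4.02 times the WT level and a log2 ratio of 1.99. It held the 49th highest log2 ratio of the 11597 genes measured and went from rank 1512 to rank 407 by level among all genes. Its log2 ratio lay between 1.78 and 2.01 over the 7 other settings.

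The other measured Rgs genes lay between -0.39 and 0.51, with a median of -0.01. Rgs5, typical of pericytes, stood at 64.5 and 63.9 FPKM (-0.01), and Rgs4, also found in mural cells, at 6.61 and 4.81 FPKM (-0.39). The mural cell markers summed to near equal levels, as given above, but went both ways, from Notch3 (6.74 and 4.02 FPKM, -0.63) to Tagln (16.0 and 24.5 FPKM, 0.58). Rgs7, best known from neurons, stood at 25.5 and 21.4 FPKM (-0.24) and Rgs3 at 9.54 and 8.71 FPKM (-0.12). Rgs19, which acts on Gi, stood at 13.9 and 17.8 FPKM (0.33), Rgs10, abundant in immune cells, at 5.72 and 8.54 FPKM (0.51), and Rgs12 at 1.39 and 1.52 FPKM (0.08, or -0.05 with columns of the same sum). None of these 7 differed by 1.5-fold or more, where 14.6% of all genes did, so few would be looked for among 7. Below the expression minimum, Rgs1, known from B cells, stood at 0.245 and 1.21 FPKM (0.83). The red cell, fibroblast, macrophage and lymphocyte marker sums were higher in Null as well, as given above, and their part in the Rgs2 value was not tested.

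Rgs2 therefore stood 2.00 above the median of the other measured Rgs genes on the log2 scale, and between 1.92 and 2.05 above it over the other settings. The summed level of all 20 Rgs genes was 181 FPKM in WT and 337 in Null. Without Rgs2 it was 129.5 and 130.4 FPKM. Rgs2 was below Rgs5 in WT, at 0.794 of its level, and 3.23 times above it in Null. The order of the RGS layer thus changed at its top, with Rgs5 leading in WT and Rgs2 in Null.

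**Figure D5:**
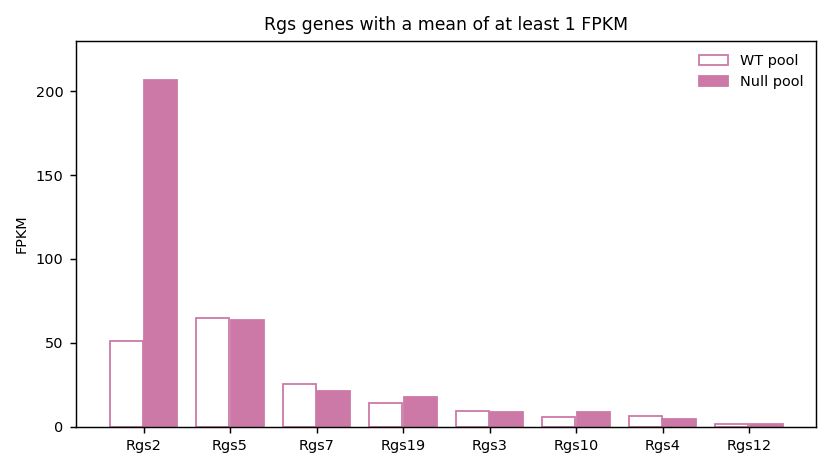
FPKM of the 8 measured Rgs genes in the WT pool (open bars) and the Null pool (filled bars). Rgs2 stands at 51.3 and 206 FPKM and the other 7 genes differ by less than 1.5-fold, the most being Rgs10 at 5.72 and 8.54 FPKM. Each bar is 1 deposited value with no replicate error.

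The receptor kinase Adrbk1 stood at 27.1 FPKM in WT and 25.7 in Null (-0.07). The symbol rule also took in Pde4dip, which encodes the anchoring protein myomegalin and no phosphodiesterase. It stood at 35.0 and 20.8 FPKM (-0.72) and was the 9th member lower by 1.5-fold or more. Myomegalin is abundant in muscle; the 7 fibre genes given above had smaller values in Null too, and their part in this value was not tested.

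Rgs2 and Prkar1a were taken to show promoters that hold letters of the cAMP response element (CRE), the site bound by CREB, and this pair was chosen after its values were seen. Of the 76 members, 57 had a promoter in the RefSeq table (GRCm38.p6), with 104 windows of 250 bases before a transcription start. Searched were the full element TGACGTCA and its core TGACG, with CGTCA on the other strand; a full element holds both cores, which overlap. The Rgs2 window, chr1:144004150-144004399 on the - strand, is printed 5′ to 3′ with the cores in capitals, which begin 185 and 67 bases before the start.
Rgs2: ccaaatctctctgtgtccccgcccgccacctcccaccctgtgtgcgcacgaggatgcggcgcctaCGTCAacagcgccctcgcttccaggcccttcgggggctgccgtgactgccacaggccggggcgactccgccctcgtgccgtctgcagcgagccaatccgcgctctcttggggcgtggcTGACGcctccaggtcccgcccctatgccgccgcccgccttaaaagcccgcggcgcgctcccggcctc
Prkar1a has 6 windows, and 1 of them held the full element, in capitals below, 49 bases before its start (chr11:109650890-109650917, + strand).
Prkar1a: cgaggcgcatTGACGTCAgcagccgaac
At least 1 core was found in 21.2% of the member windows and in 17.8% of all 32851 windows in the table. A full element was found in 1.55% of all windows and at least 2 cores in 3.90%. The 3.90% includes windows whose 2 cores are those of a full element. Rgs2, with 2 separate cores, had a log2 ratio of 1.99, and Prkar1a, with the full element, one of -0.02. Rgs4 and Prkaca also had 2 cores in a window, and their log2 ratios were -0.39 and -0.33. A match of letters is no evidence of binding.

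Other genes of the pathway were taken from lists by function. Among 15 measured G protein subunits outside the members, 2 were higher by 2-fold or more, both γ subunits: Gng11 at 51.2 and 140 FPKM (1.43) and Gngt2 at 81.8 and 218 FPKM (1.401). The share is 13.3%, beside 2.17% of all genes. Lowest were Gna12 at 29.6 and 14.6 FPKM (-0.98) and Gnao1 at 17.6 and 10.3 FPKM (-0.72). The most abundant by the mean of both pools, the β subunit Gnb2, stood at 158 and 159 FPKM (0.01), and the median of the list was 0.02.

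Of 12 measured arrestins, other receptor kinases and other Gs-coupled receptors, none passed 2-fold, where 3.82% of all genes did. Highest were the ACTH receptor Mc2r at 5.06 and 8.83 FPKM (0.70) and the arrestin Arrb2 at 5.52 and 8.95 FPKM (0.61). Lowest were the receptor kinases Adrbk2, the most abundant of the list, at 36.8 and 26.2 FPKM (-0.48) and Grk5 at 15.5 and 12.7 FPKM (-0.27). Of 13 measured PKA anchors, PKA inhibitors and Epac genes, none passed 2-fold, beside the same 3.82% of all genes, and the median was -0.23. Akap1, which anchors PKA at mitochondria, was the most abundant at 113 and 99.99 FPKM (-0.17). Akap13 (9.10 and 5.37 FPKM, -0.66) and Akap9 (7.49 and 4.96 FPKM, -0.51) were lowest, and Akap8l (25.2 and 31.7 FPKM, 0.32) and the inhibitor Pkig (13.5 and 14.8 FPKM, 0.12) highest.

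Further down, 10 of 12 genes of the CREB family, its coactivators and the salt-inducible kinases were lower, with a median of -0.34. Among all genes 49.4% were lower. The kinases, which PKA restrains and which hold the CREB coactivators out of the nucleus, were the 3 lowest. Sik2, the most abundant of the list, stood at 91.9 and 42.0 FPKM (-1.11), Sik3 at 9.71 and 5.24 FPKM (-0.78), and Sik1 at 9.48 and 5.35 FPKM (-0.72). Crem (7.83 and 10.4 FPKM, 0.37) and Creb1 (5.52 and 6.18 FPKM, 0.14) were higher.

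Genes that cAMP induces in brown fat did not go one way. Of 18 measured, 8 were higher and 10 lower, with a median of -0.08. The early response genes Junb (16.4 and 36.8 FPKM, 1.12) and Nr4a1 (9.36 and 17.5 FPKM, 0.83) were highest. Ucp1, which makes the heat, was the most abundant, with the values given above and a log2 ratio of -0.28. The elongase Elovl3 (88.3 and 17.5 FPKM, -2.27) and Dio2, which activates thyroid hormone (18.6 and 9.05 FPKM, -0.97), were lowest. Of 9 PKA substrates and partners in lipolysis, 7 were lower and none by 2-fold, where 49.4% of all genes were lower and 1.65% by 2-fold. The hormone-sensitive lipase Lipe stood at 750 and 523 FPKM (-0.52) and the droplet coats Plin1 at 585 and 400 FPKM (-0.55) and Plin2 at 708 and 415 FPKM (-0.77). Abhd5 (47.3 and 48.6 FPKM, 0.04) and Fabp4, the most abundant (27295 and 34679 FPKM, 0.35), were higher.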

How the data were processed

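The authors deposited mRNA values as FPKM, and the file headers name a single column for each genotype. They had combined the 3 libraries of a genotype, and the sources used here do not say how. Per the submitters' processing notes the tools included CASAVA, TopHat, BWA, edgeR and DESeq on build mm9, without a role for each. The microRNA values, headed RPM by the authors, sum to 1559381 in WT and 1578515 in Null over 386 microRNAs. They are therefore treated as a signal as deposited and used to check the deletion only. A listed 0 can be a failed estimate: Scd1 was at 0 in both pools and Fasn at 0 in WT and 1641 FPKM in Null. No depth could be read from the mRNA values.

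Log2 ratios used a pseudocount of 1 FPKM, a minimum mean of 1 FPKM, and folds of 2 and 1.5 (pandas 2.3.3, numpy 2.4.6). The calculation was tested on simulated data. With 1 column per genotype no test between genotypes was made. Any measured member could be named, and values were given in full for the 4 most abundant per layer, every adrenergic receptor and measured Rgs gene, and every member past 1.5-fold. Of the other pathway lists the most abundant gene and the 2 highest and 2 lowest ratios were named. Lipe and Sik1, both lower in Null, were named beyond this rule. One gene that the symbol rule matches is not reported here and is left out of all counts, medians and sums of members. Members and lists were chosen with earlier results of these data known. Promoters and microRNAs were matched by symbol to RefSeq.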

Additional observations from a re-analysis of the deposited data

How the results depend on the processing

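The pseudocount (0.1 or 5 FPKM), the filter (none, or a mean of at least 5 FPKM) and the scaling (same column sum, quantile or upper quartile) were varied 1 at a time. A log2 value counts as moved when it changed by more than 0.32. Members higher by 2-fold or more numbered 2 with a pseudocount of 0.1 FPKM, against 1. The share of all genes was 3.12%, against 2.17%. Members higher by 1.5-fold or more numbered 1 with a pseudocount of 5 FPKM, a mean of at least 5 FPKM or columns of the same sum, against 2. The shares of all genes in these settings were 4.59%, 8.40% and 4.04%, against 7.87%. Members lower by 2-fold or more numbered 3 with a pseudocount of 0.1 FPKM and 3 with columns of the same sum, against 0. The shares of all genes were 2.56% and 2.82%, against 1.65%. Members lower by 1.5-fold or more numbered 3 with a pseudocount of 5 FPKM and 14 with columns of the same sum, against 9, and also 6 with a mean of at least 5 FPKM and 8 with upper-quartile scaling. The shares of all genes in these settings were 3.04%, 13.97%, 7.03% and 6.36% in that order, against 6.75%. Without the filter the receptor median was -0.16, against -0.47, because 4 receptors near 0 enter it, and the adenylyl cyclase median was -0.27, against -0.59, with 3 low cyclases added. The RGS median changed sign, at -0.01 (mean of at least 5 FPKM), -0.14 (same sum) and -0.01 (quantile), against 0.03. Relative to the median of all genes it was -0.02, 0.04 and -0.01 in these settings, against 0.03. Rgs2, the 1 member past 2-fold on the log2 scale as deposited, kept its sign in every setting. The smaller ratios of Adcy4, Adra2b, Gnai2, Prkacb, Rgs12 and Rgs5 changed sign in 1 or 2 settings. Of 268 values for single genes, 260 changed by at most 0.32 on the log2 scale. A filter cannot change a gene's own ratio, so the values from the filter settings were fixed in advance. They add nothing to this count as a check. An adjustment for protein length was not run because no table of lengths was used here. No paired analysis was possible because each genotype has 1 combined column, which also prevents leaving out a replicate. The unknown depth limits the genes near 1 FPKM.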

Other observations

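The rows of the deposited FPKM table fall into 2 runs. The last rows are in alphabetical order, and before them stand 727 rows (3.22% of 22552) in descending order of the ratio of Null to WT, 331 of them higher and 396 lower in Null, each differing by at least 1.63-fold. The file does not say how these rows were chosen. They hold 5 of the 76 members: Rgs2 in row 10, Prkar2a, Adcy10, Pde7b and Pde3a. They are not simply the largest ratios, since 1535 measured genes listed above 0 in both pools differ by that much and 725 of these stand among the leading rows. Among the members, 10 measured genes differ by that much. Adcy3 (31.6 and 17.2 FPKM) and Pde9a (0.893 and 1.94 FPKM) do and stand in the alphabetical part.

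Some members below the expression filter also had unequal values. Rgs18, known from platelets and their precursors, stood at 0.310 and 0.714 FPKM in WT and Null. Adcy2 stood at 0.818 and 0.311 FPKM. Rgs20 and Rgs22 were listed at 0 in both pools.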
